A study of Homo sapiens with 6 samples.

Results

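The cornified envelope precursor genes followed here were 10 listed genes: SPRR1A, SPRR1B, SPRR2A, SPRR2D, SPRR3, IVL, FLG, CNFN, PPL and EVPL. They were found by symbol among the 21676 genes of the count table, and 9 of the 10 matched a row. Expression of SPRR3 was therefore not analysed here. Only 4 of them, FLG, CNFN, PPL and EVPL, had enough reads to enter the test of 14629 genes. The cornified envelope is a sheet of protein that squamous epithelial cells build beneath the plasma membrane late in differentiation. Envoplakin (EVPL) and periplakin (PPL), 2 members of the plakin family that tie keratin filaments to desmosomes, form the first scaffold together with involucrin (IVL). Transglutaminases then cross-link small proline-rich proteins (SPRR) and other precursors onto that scaffold, while filaggrin (FLG) bundles keratin filaments and cornifelin (CNFN) joins the outer envelope. Glandular cells do not normally build an envelope, although plakins also work at the desmosomes of simple epithelia.

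The libraries came from the 83 cell line, which the submitters call a SACC cell without spelling the name out. In 3 libraries the cells were labelled control (NC) and in 3 they carried overexpression of ApoD, a secreted lipocalin. How the gene was introduced, what the control cells received and how many clones were used are not stated in the labels, nor is it said that replicates were separate cultures, so p-values here reflect library-to-library spread alone, part of which could be technical. Totals ran from 38845545 to 39583565 counts in control libraries and from 37542568 to 40416964 with ApoD overexpression, and APOD itself had 2 to 9 counts in control libraries and 528 to 628 with ApoD overexpression. In the edgeR quasi-likelihood test 3601 genes, 24.6% of those tested, were lower and 3539, 24.2%, were higher with ApoD overexpression at an adjusted p under 0.05. The groups did not overlap for 58.7% of tested genes, with every control library above for 29.7%. The median change over all tested genes was −0.02 on the log2 scale with TMM scaling (edgeR's trimmed mean of M-values) and −0.13 after scaling by library totals, so small changes have to be read against that shift. Genes with a count numbered 18591 to 18685 in control libraries and 17378 to 17789 with ApoD overexpression, and mitochondrial genes took 4.10% to 4.50% and 3.19% to 3.54% of counts; both moved with the groups, and their part in the results was not tested. Control replicate 1 stood apart from the other controls, with a chi-square per degree of freedom of 29.6 and 39.5 against 11.9 between replicates 2 and 3, and ApoD overexpression replicate 2 stood apart likewise (34.7 and 27.2 against 11.6). Among markers of glands, the luminal keratins KRT7, KRT8 and KRT18 were abundant. A further luminal keratin, KRT19, had 128 to 249 counts in control libraries and 17 to 44 with ApoD overexpression. The salivary gland markers AQP5 and ELF5 had at most 5 counts in any library, and KIT and SOX10 were not analysed here.

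The genes that encode the small proline-rich proteins and involucrin lie beside each other on chromosome 1. The bases before the start sites of SPRR1A, SPRR1B, SPRR2A and IVL are shown because these genes shared near-zero counts and a short motif. RefSeq promoter entries were found for 7 of the 10 genes; SPRR2D, PPL and EVPL had none. Each line gives the 250 bases before the RefSeq start, 5′ to 3′, on GRCh38.p14: SPRR1A at chr1:152983831-152984080 (+), SPRR1B at chr1:153030953-153031202 (+), SPRR2A at chr1:153057513-153057762 (−) and IVL at chr1:152908296-152908545 (+). The build used for the counts is not given in the sources used here, and the sequences were matched by symbol. Capitals mark the AP-1 motif TGAGTCA, which reads TGACTCA on the other strand, and the TATA motif TATAAA, searched on both strands; the motifs do not overlap each other.
SPRR1A: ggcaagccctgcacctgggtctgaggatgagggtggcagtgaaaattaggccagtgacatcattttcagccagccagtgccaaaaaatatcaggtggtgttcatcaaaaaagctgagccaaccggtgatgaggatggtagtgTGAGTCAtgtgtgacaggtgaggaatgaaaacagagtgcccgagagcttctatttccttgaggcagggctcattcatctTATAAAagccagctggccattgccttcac
SPRR1B: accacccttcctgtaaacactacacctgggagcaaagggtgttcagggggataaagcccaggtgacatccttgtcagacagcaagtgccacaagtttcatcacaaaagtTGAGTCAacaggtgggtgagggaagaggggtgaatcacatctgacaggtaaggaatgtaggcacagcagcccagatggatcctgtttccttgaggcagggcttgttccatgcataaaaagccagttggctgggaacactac
SPRR2A: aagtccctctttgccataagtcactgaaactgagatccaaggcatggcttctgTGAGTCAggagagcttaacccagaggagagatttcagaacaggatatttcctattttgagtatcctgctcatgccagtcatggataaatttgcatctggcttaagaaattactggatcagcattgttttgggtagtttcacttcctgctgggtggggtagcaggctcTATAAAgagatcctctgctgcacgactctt
IVL: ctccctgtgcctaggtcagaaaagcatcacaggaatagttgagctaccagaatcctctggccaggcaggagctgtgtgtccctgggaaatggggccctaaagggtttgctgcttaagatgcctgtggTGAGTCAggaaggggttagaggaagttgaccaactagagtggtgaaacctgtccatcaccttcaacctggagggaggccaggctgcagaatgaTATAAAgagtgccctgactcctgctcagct
The AP-1 motif was present before 5 of the 7 genes with an entry (SPRR1A, SPRR1B, SPRR2A, SPRR3 and IVL), against 4.16% of 27305 RefSeq promoter windows of the same length. Its first base stood 108 bases before the start in SPRR1A, 141 in SPRR1B, 197 in SPRR2A and 123 in IVL. The TATA motif was present before 5 of the 7 (SPRR1A, SPRR2A, SPRR3, IVL and FLG), against 11.1% of all windows. In SPRR1A, SPRR2A and IVL it began 29 or 30 bases before the start. CNFN, on chromosome 19, held neither motif, and its window had 68.4% GC against 53.2% in IVL and 44.8% in SPRR2A. The SPRR genes are related and lie beside each other, so their windows are not independent cases to set against the share of all windows. A match of letters is not a measured binding site.

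SPRR transcripts were close to the limit of detection in both groups. SPRR1A, a substrate that transglutaminases cross-link into the envelope, had 0 counts in all 3 control libraries and 1, 1 and 0 counts with ApoD overexpression. SPRR2D had 0 counts in control libraries and 0, 1 and 0 with ApoD overexpression, and SPRR2A had 0 counts in control libraries and 0, 4 and 0 with ApoD overexpression. All 5 counts of the SPRR2 pair were therefore in ApoD overexpression replicate 2. The SPRR2 genes are near-identical copies, so a read can be credited to the wrong one. A group total of 0 counts allows up to 3 counts, which is 0.0245 CPM (TMM-scaled counts per 1000000) over the control libraries, so no fold is given for SPRR1A or SPRR2D.

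SPRR1B was the SPRR gene with the most reads, and still had only 5, 2 and 8 counts in the control libraries and 4, 3 and 6 with ApoD overexpression. Its groups overlapped fully. The pooled level was 0.122 CPM in controls and 0.115 CPM with ApoD overexpression. Their ratio was 1.06, and its 95% counting interval ran from 0.473 to 2.43. Intervals of this kind cover counting error only. An exact two-sided permutation test of mean CPM gave p = 0.9 for SPRR1B (n = 3 a group), where 3 against 3 libraries cannot go below 0.1. A difference inside that interval was not detectable at this depth.

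IVL, the glutamine-rich scaffold protein widely used as a squamous marker, had 0, 5 and 6 counts in control libraries and 0, 1 and 0 with ApoD overexpression. The counts in controls came from replicates 2 and 3, and control replicate 1 had none, so the groups overlapped. The pooled ratio of control to ApoD overexpression was 10.1, but with a 95% counting interval from 1.48 to 437. The exact two-sided permutation p was 0.4 (n = 3), and with no low-count filter the edgeR adjusted p was 0.233 over 21676 genes. Together the 4 SPRR genes with a row and IVL had 26 counts in control libraries and 21 with ApoD overexpression, 47 of 235761344 counts in the series, and never more than 8 in 1 library.

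FLG, whose product aggregates keratin filaments, had 22, 23 and 12 counts in the control libraries and 7, 11 and 27 with ApoD overexpression. ApoD overexpression replicate 3 held the highest count of the 6 and replicate 1 the lowest, so the groups overlapped. The log2 fold change was −0.23 ± 0.59 (SE; edgeR adjusted p = 0.774), and its sign turned without ApoD overexpression replicate 1 or with each library's abundance trend removed. FLG-AS1, an antisense gene that shares 704 exonic bases with FLG in GENCODE 29, had 94, 97 and 61 counts in control libraries and 47, 68 and 82 with ApoD overexpression. The counting's strand setting is not given in the sources used here, so reads within those shared bases, out of 12747 exonic bases of FLG, cannot be told apart.

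CNFN had 20, 47 and 62 counts in the control libraries and 15, 35 and 17 with ApoD overexpression. Control replicate 1 lay within the range of the other group. The level was 1.05 ± 0.508 CPM in controls and 0.603 ± 0.332 CPM with ApoD overexpression (SD, n = 3), a log2 fold change of −0.80 ± 0.53 (SE) that did not pass the threshold (edgeR adjusted p = 0.23). Leaving out 1 library at a time moved that estimate between −1.35 and −0.43, and in none of these fits did it pass.

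**Figure D1:**
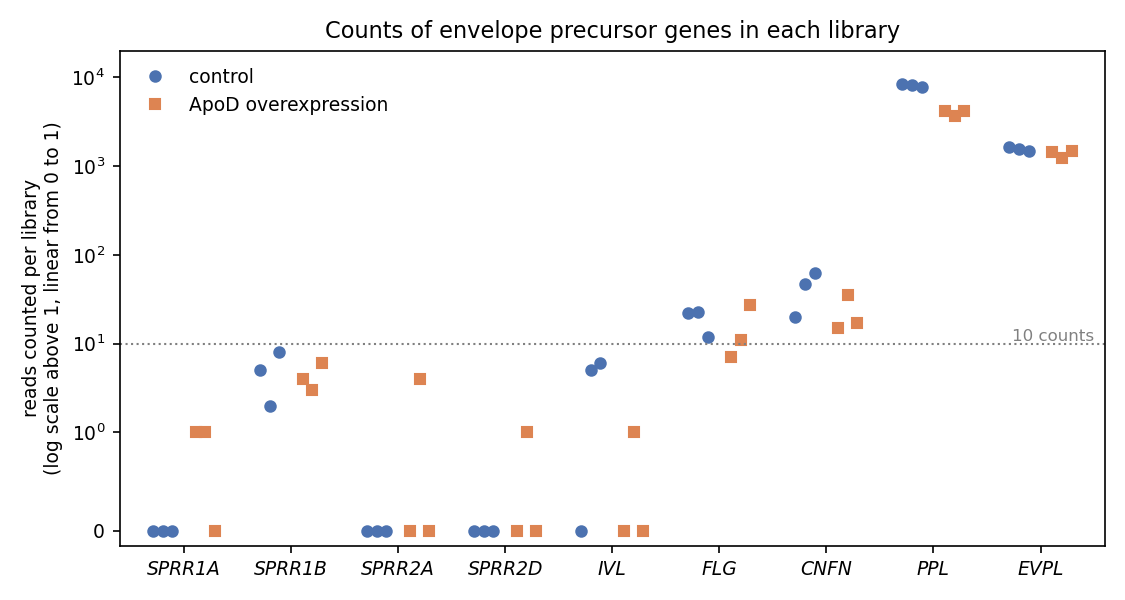
Reads counted for each envelope precursor gene with a row, in each control library (circles) and each ApoD overexpression library (squares); the vertical axis is logarithmic above 1 and linear from 0 to 1, and the dotted line marks 10 counts. PPL and EVPL have 1236 counts or more in all 6 libraries, CNFN and FLG lie between 7 and 62, and the SPRR genes and IVL lie at or below 8.

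The scaffold plakins were the abundant genes among the listed precursors, and PPL fell while EVPL did not pass the test. PPL, which encodes periplakin, had 8517, 8246 and 7757 counts in the control libraries and 4182, 3632 and 4218 with ApoD overexpression. Every control library was above every ApoD overexpression library. The level fell from 199.9 ± 11.95 to 106 ± 3.91 CPM (SD, n = 3), a log2 fold change of −0.91 ± 0.09 (SE; edgeR adjusted p = 1.08e-05). Without control replicate 1 the change of PPL was −0.87, and without ApoD overexpression replicate 2 it was −0.90. PPL was the 1 precursor gene called of the 4 tested, in a data set where 48.8% of all tested genes were called and 24.6% were called lower. The other 3 tested precursors did not pass, and the median change of the 4 was −0.51. In bulk RNA, fewer cells that express PPL and less PPL RNA in each cell cannot be told apart.

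EVPL, the partner that forms heteromers with periplakin, had 1647, 1560 and 1490 counts in control libraries and 1451, 1236 and 1466 with ApoD overexpression. In CPM the groups overlapped, from 36.0 to 40.8 in controls and from 34.8 to 38.3 with ApoD overexpression. The log2 fold change was −0.06 ± 0.10 (SE; edgeR adjusted p = 0.619), and −0.18 ± 0.09 with scaling by library totals (adjusted p = 0.139). A missed threshold does not show that EVPL stayed the same. SEC14L5 overlaps PPL on the other strand in GENCODE 29 and TEN1-CDK3 overlaps EVPL, in both cases with 0 shared exonic bases, and neither had more than 18 counts in a library.

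The balance of the plakin partners inside a library does not depend on scaling between libraries. Per kilobase, in FPKM, PPL exceeded EVPL 5.27-fold, 5.38-fold and 5.30-fold in the control libraries and 2.94-fold, 2.99-fold and 2.93-fold with ApoD overexpression. The mean ratio was 5.32 ± 0.0599 in controls against 2.95 ± 0.0347 in cells with ApoD overexpression (SD, n = 3), with no overlap and a difference of −0.85 on the log2 scale. The exact two-sided permutation test of the log2 ratio gave p = 0.1 (n = 3), the smallest value 3 against 3 libraries allow. This ratio was picked after the values of both genes had been seen.

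**Figure D2:**
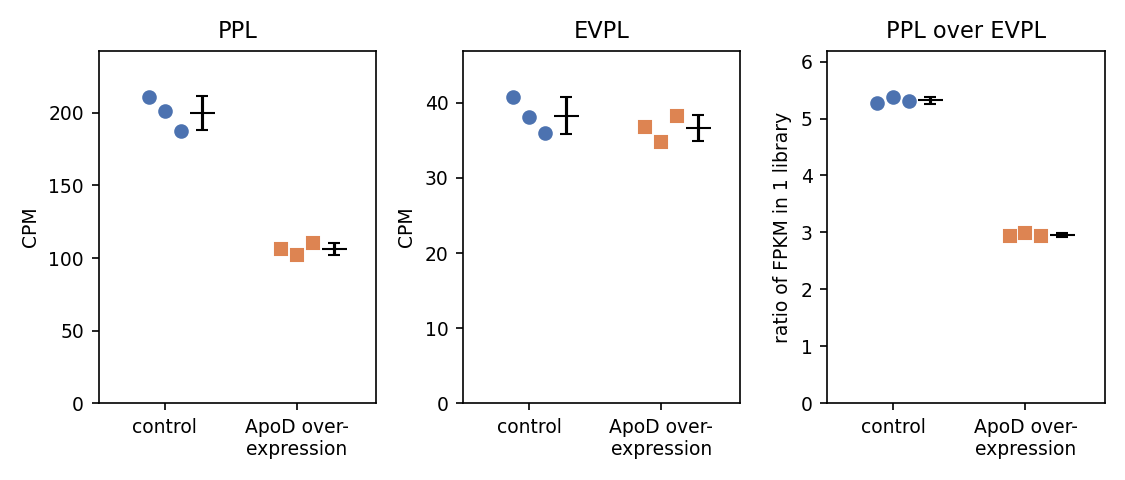
CPM of PPL (left) and EVPL (middle) and the ratio of their FPKM values within each library (right), for 3 control and 3 ApoD overexpression libraries; black bars give the mean ± SD and all axes start at 0. PPL and the ratio separate the groups, at 5.27 to 5.38 against 2.93 to 2.99 for the ratio, whereas EVPL overlaps.

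Ranked per length in the controls, PPL came first of the listed genes at 32.4 ± 1.27 FPKM. EVPL followed at 6.10 ± 0.267, then CNFN at 1.62 ± 0.814 and SPRR1B at 0.206 ± 0.126 FPKM (SD, n = 3). No adjacent pair among these 4 overlapped across the control libraries. IVL at 0.0435 ± 0.0382 and FLG at 0.0377 ± 0.0118 FPKM followed and overlapped each other. With ApoD overexpression the first 4 places were unchanged, at 15.9 ± 0.721 FPKM for PPL, 5.38 ± 0.305 for EVPL, 0.853 ± 0.458 for CNFN and 0.177 ± 0.0588 for SPRR1B; again none of these neighbours overlapped. Averaged over all 6 libraries, PPL exceeded 87.8% of the genes in the table and EVPL 67.9%, while CNFN exceeded 50.8% and SPRR1B 37.0%. IVL, FLG and the SPRR2 genes were above 10.7% to 23.3% of them.

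For the 2 precursors with at least 1 CPM on average, the genes with the most similar pattern were found by Pearson's r of log2(CPM + 1) over the 6 libraries, among 12653 other genes. For PPL these were ALPG (r = 0.999), LRRC45 (r = 0.998) and PKP2 (r = 0.998), the last encoding the desmosomal plaque protein plakophilin 2. The level of PKP2 was 186 ± 9.39 CPM in controls and 130 ± 3.85 CPM with ApoD overexpression (n = 3), and it fell by 0.52 ± 0.09 (SE) on the log2 scale. ALPG had a log2 fold change of −4.55 ± 0.23 (SE), from 17.4 to 0.741 CPM, against −0.91 for PPL. A high r therefore does not mean a change of like size. LRRC45 fell by 0.29 ± 0.09 on the log2 scale and lost its call in 7 of the 15 alternative fits. For EVPL they were ZNF133 (r = 0.995), BPTF (r = 0.980) and BAZ2A (r = 0.975), with log2 fold changes of −0.16, −0.12 and −0.07 that did not pass. These values describe 6 points that share libraries and, for PPL, a group difference.

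In chromosomal order, IVL, FLG and the SPRR genes sit in the epidermal differentiation complex, a run of protein-coding genes framed by S100 genes. RefSeq on GRCh38.p14 lists 47 genes between S100A11 and S100A9, and 12 of them matched a row of the count table. Only 2 of the 12, FLG and TCHH, were tested, and neither was called. TCHH, the keratin-binding protein trichohyalin, had 7, 32 and 6 counts in control libraries and 24, 11 and 5 with ApoD overexpression. The S100 genes on the flanks encode small calcium-binding proteins, and their levels varied widely: of 15 with a row, 9 had a mean of at least 1 CPM in both groups and 6, among them S100A7, S100A8 and S100A9, were below 1 CPM in both. Of 13 listed S100 genes 10 were tested, 2 rose and 2 fell, which is 20% in each direction and no more than the 24.2% higher and 24.6% lower of all tested genes. S100A2 rose from 617 ± 26.7 to 920 ± 145 CPM and S100A14 fell from 309 ± 34.4 to 139 ± 3.97 CPM (n = 3).

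**Figure D3:**
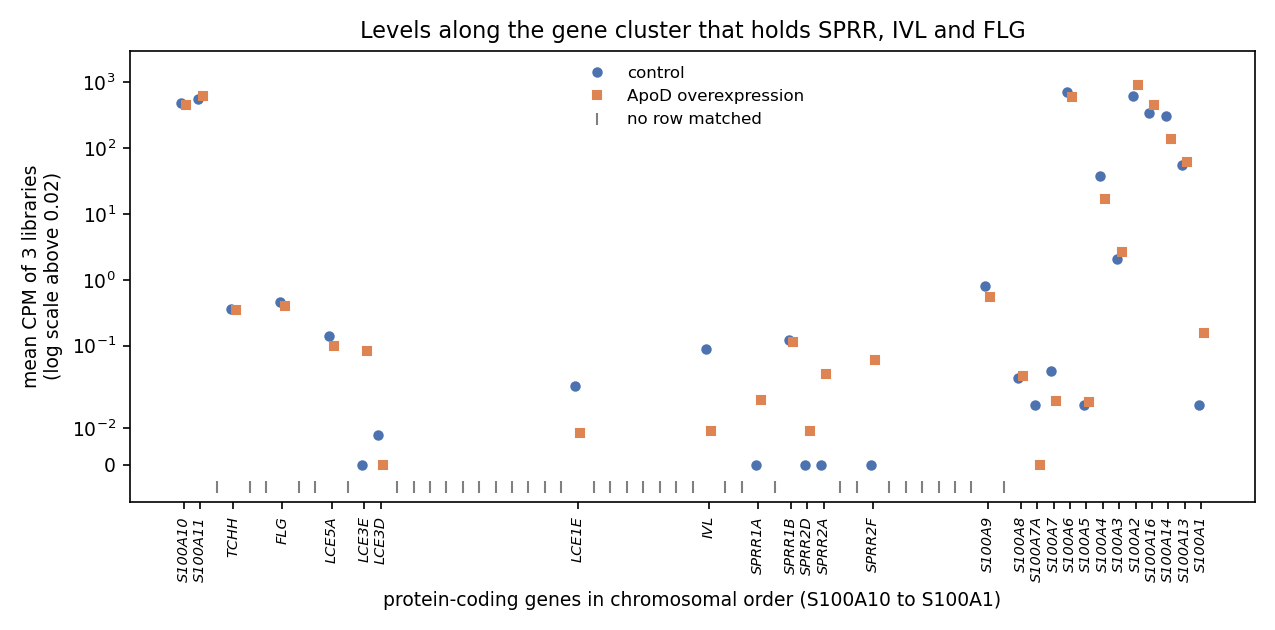
Mean CPM of 3 control (circles) and 3 ApoD overexpression libraries (squares) for protein-coding genes in RefSeq order from S100A10 to S100A1; the vertical axis is logarithmic above 0.02 and ticks under 0 mark genes with no matching row. The inner stretch with FLG, IVL and the SPRR genes lies below 1 CPM, whereas S100A10, S100A11, S100A2 and S100A14 on the flanks lie above it.

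Most other precursors from the same textbook set also had few reads or no matching row. Of 38 further listed precursors (loricrin, late cornified envelope genes, repetin and others) 9 matched a row and 3 were tested. PI3, the secreted protease inhibitor elafin that transglutaminase can anchor, rose from 2.30 ± 0.407 to 4.55 ± 0.900 CPM (n = 3). Its change was 0.98 ± 0.24 (SE) on the log2 scale, with an edgeR adjusted p of 0.00535. CSTA, the cysteine protease inhibitor cystatin A, was at 24.7 ± 1.87 and 20.3 ± 2.02 CPM and did not pass (adjusted p = 0.0602), although it was called lower under 6 of the 15 alternatives. Per length, CSTA was at 34.6 FPKM in controls against 32.4 for PPL, and the libraries of these genes overlapped there. With ApoD overexpression CSTA was at 26.1 FPKM against 15.9 for PPL. PI3 was below EVPL in controls, at 4.35 against 6.10 FPKM, and above it with ApoD overexpression, at 7.92 against 5.38 FPKM. TCHH was the third gene tested.

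The enzymes that act on the precursors were measured more often than most precursors themselves. Of 8 listed transglutaminases and peptidylarginine deiminases 6 were tested, and all 6 fell, against 24.6% of all tested genes. PADI1, PADI2 and PADI4 passed the low-count filter on their control counts. With ApoD overexpression PADI1 had 2, 1 and 6 counts, PADI2 14, 12 and 3, and PADI4 12, 5 and 12. Such genes could hardly be called higher, so the number that fell is not independent of the filter. TGM1, the membrane-bound transglutaminase of the envelope, had 242, 352 and 195 counts in control libraries and 85, 61 and 84 with ApoD overexpression, a log2 fold change of −1.67 ± 0.25 (SE). TGM2, the widely expressed tissue transglutaminase, fell from 320 ± 96.7 to 95.6 ± 6.20 CPM (n = 3). TGM2 was lowest among the controls in replicate 1, at 211 CPM, and its change was −1.74 ± 0.18 with all libraries and −1.97 without that replicate. All 6 enzymes stayed called lower without control replicate 1 and without ApoD overexpression replicate 2. TGM3 and TGM5, which were not tested, had at most 10 counts in a library. PADI3 and PADI1, deiminases that citrullinate filaggrin among other proteins, had log2 fold changes of −5.31 ± 0.38 and −5.04 ± 0.69, PADI2 had −3.28 ± 0.50 and PADI4 −2.29 ± 0.55. Without ApoD overexpression replicate 3 the change of PADI1 was −5.97, and without control replicate 3 it was −4.42.

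Proteases and inhibitors that process the precursors or shed the envelope fell in 12 of 13 tested genes, against 24.6% of all tested genes. Their median change was −3.30 against −0.02 over all tested genes. KLK8, KLK5 and KLK7, kallikreins of the outer epidermis, had changes of −5.30 ± 0.44, −4.08 ± 0.69 and −3.60 ± 0.63 (SE); KLK5 had 33, 40 and 43 counts in control libraries and 2, 0 and 4 with ApoD overexpression, and its change was −4.99 without ApoD overexpression replicate 3. With ApoD overexpression KLK7 had 10, 0 and 11 counts and KLK8 20, 4 and 17. These 3 kallikreins passed the low-count filter on their control counts, so their fall is not independent of the filter. SERPINB13, a serpin of squamous cells, fell from 48.0 ± 13.4 to 4.36 ± 1.76 CPM (n = 3). CST6, the inhibitor cystatin M, was the tested gene that did not pass. Genes for the lipid envelope were mixed, with 5 of 11 lower and 3 higher (45.5% and 27.3%, against 24.6% and 24.2% of all tested genes): FA2H, a fatty acid hydroxylase, fell from 17.1 ± 1.84 to 3.64 ± 0.366 CPM, and ABCA12, a lipid transporter, had a change of −1.38 ± 0.29. NIPAL4 and the lipoxygenase ALOX12B had changes of −2.71 ± 0.70 and −1.76 ± 0.48, and these were −3.63 without ApoD overexpression replicate 3 and −2.41 without replicate 1, respectively. Both NIPAL4 and ALOX12B also passed the filter on control counts.

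Periplakin and envoplakin belong to a family of 7 measured plakins, of which 5 fell, 1 rose and 1, EVPL, did not pass; 24.6% of all tested genes were called lower and 24.2% higher. DST, which encodes dystonin, fell from 207 ± 17.5 to 102 ± 29.2 CPM (n = 3), a log2 fold change of −1.02 ± 0.17 (SE) next to −0.91 ± 0.09 for PPL. EPPK1, epiplakin, fell from 170 ± 9.60 to 102 ± 10.2 CPM, and DSP, the desmosome anchor desmoplakin, from 1068 ± 102 to 802 ± 119 CPM. The DSP call was lost without control replicate 2 (edgeR adjusted p = 0.0666; 0.0121 with all 6 libraries). PLEC, plectin, the keratin linker of hemidesmosomes, rose from 428 ± 91.8 to 840 ± 87.3 CPM, a change of 0.97 ± 0.14 (adjusted p = 0.000157). MACF1, which cross-links actin and microtubules, had a change of −0.50 ± 0.14. Over the whole list of 15 tested desmosome and plakin partners 10 fell and 3 rose, with a median of −0.50. DSG3, desmoglein 3, fell from 75.7 ± 7.95 to 41.8 ± 9.97 CPM. Beside PLEC, those that rose were PKP3, plakophilin 3, by 0.39 ± 0.10 (SE) on the log2 scale and KAZN by 0.36 ± 0.11. KAZN lost its call without control replicate 1 (edgeR adjusted p = 0.0644) or ApoD overexpression replicate 3 (0.0594).

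**Figure D4:**
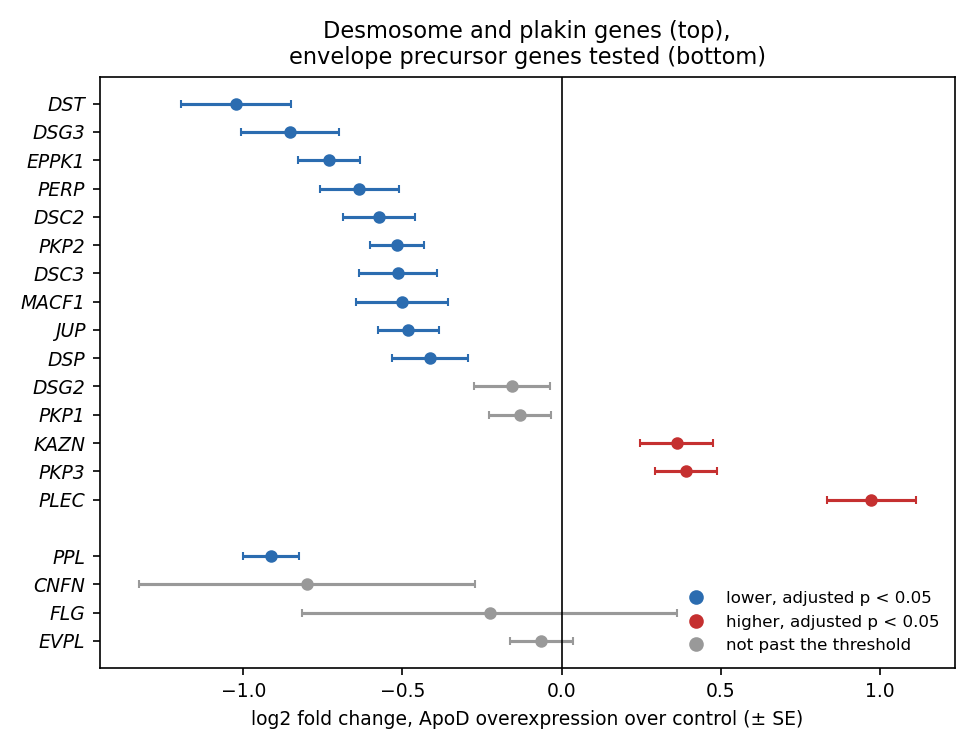
Log2 fold change (ApoD overexpression over control) with its SE from edgeR for desmosome and plakin genes (upper block) and the 4 tested envelope precursors (lower block); colour marks whether the adjusted p was under 0.05. PPL at −0.91 stands beside DST and EPPK1, EVPL lies at −0.06, and PLEC is higher at 0.97.

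Keratins and transcription factors of squamous layers moved beside the plakins. Of 9 tested stratified keratins 5 fell and 1 rose (55.6% and 11.1%), where 24.6% of all tested genes fell and 24.2% rose. KRT13, a suprabasal keratin of wet stratified epithelium, fell from 853 ± 123 to 35.1 ± 4.93 CPM (n = 3). KRT15, KRT14 and KRT16 had log2 fold changes of −2.98 ± 0.15, −1.75 ± 0.21 and −1.15 ± 0.21 (SE), and KRT17 had −0.276. KRT6A, the 1 that rose, had a change of 0.646 ± 0.157 (edgeR adjusted p = 0.00489). KRT5, KRT10 and KRT80 did not pass, with changes of −0.253, 0.228 and 0.207. Keratin paralogs can share reads. Of 30 tested regulators of squamous differentiation 20 fell and 3 rose (66.7% and 10%), with a median of −0.75. ZNF750 and MAF are among the 20 and passed the low-count filter on their control counts. MAF had 22, 110 and 67 counts there and 19, 3 and 11 with ApoD overexpression. The fall of both is not independent of the filter. The ETS factors EHF and ELF3 and the grainyhead factor GRHL1 had changes of −3.35 ± 0.31, −2.79 ± 0.14 and −2.48 ± 0.32. ZNF750, which had 15, 50 and 11 counts in control libraries and 0, 8 and 0 with ApoD overexpression, was called lower (adjusted p = 0.0275) but lost the call without control replicate 2 (−2.09, adjusted p = 0.182), without ApoD overexpression replicate 1 (−2.42, 0.0779) and without replicate 3 (−2.44, 0.0687); without replicate 2, which holds all 8 counts, the change was −7.64. KLF4, a zinc finger factor of the outer epidermis, was one of the 3 that rose, from 76.8 ± 15.1 to 151 ± 16.5 CPM. Subunits of AP-1, the dimer known to bind the motif shown for SPRR1A, SPRR1B, SPRR2A and IVL, moved in both directions: of the 6 in the list 3 fell, 2 rose and 1 did not pass. JUNB, at the highest CPM of the 6 in both groups, fell from 347 ± 32.4 to 262 ± 17.2 CPM (edgeR adjusted p = 0.00471). FOSL2 fell from 168 ± 19.6 to 93.6 ± 5.94 CPM and FOS from 5.81 ± 2.12 to 2.48 ± 0.470 CPM. FOSL1 rose from 19.0 ± 2.42 to 62.1 ± 8.26 CPM and JUN from 11.3 ± 1.07 to 27.0 ± 1.88 CPM. JUND, at 69.1 ± 5.61 and 63.9 ± 4.38 CPM, did not pass. SPRR1B, IVL, SPRR1A and SPRR2A stayed at 8 counts or fewer in every library.

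**Figure D5:**
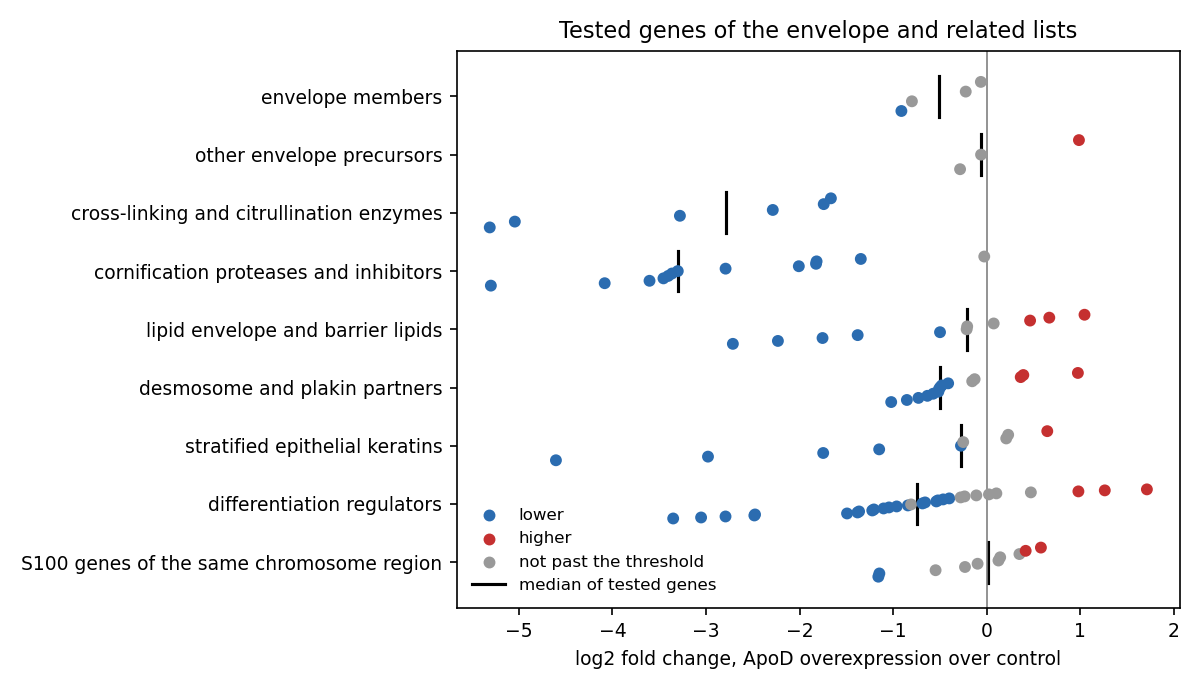
Log2 fold change (ApoD overexpression over control) of every tested gene in the envelope precursor set and the related lists; each point is a gene, colour marks the call at an adjusted p of 0.05 and black bars are list medians. The enzyme and protease lists have medians of −2.78 and −3.30, against −0.51 for the 4 tested precursors and 0.01 for the S100 genes. PADI1, PADI2, PADI4, KLK5, KLK7 and KLK8 are among the genes that passed the low-count filter on control counts.

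Markers of other cell types were counted beside these results. Over all tested genes 24.6% were called lower and 24.2% higher, and the counts below stand against those shares. The summed level of 9 fibroblast markers ran from 27.2 to 32.7 CPM in controls and from 9.996 to 13.8 CPM with ApoD overexpression, most of it COL1A1, and 2 of 2 tested members fell; DCN and LUM had at most 1 count in a library. Of 7 endothelial markers 3 were tested and all 3 fell. The list summed to 8.13 to 13.4 CPM in controls and 1.37 to 2.32 CPM with ApoD overexpression. KDR and CLDN5 were not analysed here. COL3A1 passed the low-count filter on its control counts, 161, 128 and 67, against 6, 4 and 4 with ApoD overexpression. CDH5 had a log2 fold change of −6.75, and −8.65 without ApoD overexpression replicate 1. Markers that passed on control counts could hardly be called higher, so the numbers that fell are not independent of the filter. The sum of 9 immune markers was 15.8 to 32.9 CPM in controls and 36.7 to 39.1 CPM with ApoD overexpression. Nearly all of it was CD68, with PTPRC at 12 counts or fewer. CD68, the 1 tested, was called higher with a log2 fold change of 0.57. It lost the call without control replicate 2 (edgeR adjusted p = 0.0561) or ApoD overexpression replicate 2 (0.104). Of 8 myoepithelial markers 6 were tested and 4 fell, with sums of 191 to 208 and 137 to 165 CPM. Of 12 luminal markers of salivary glands 6 were tested, of which 3 fell and 1 rose (50% and 16.7%), with sums of 2439 to 3347 and 2988 to 3464 CPM. KRT19 had a log2 fold change of −2.46 ± 0.36 (SE; edgeR adjusted p = 0.000193). MUC1 fell from 153 ± 12.5 to 55.2 ± 3.91 CPM, a change of −1.47 ± 0.10 (edgeR adjusted p = 9.79e-07). The 1 that rose, KRT7, overlapped between the groups (edgeR adjusted p = 0.0154) and lost its call without control replicate 2 (0.078), control replicate 3 (0.0502) or ApoD overexpression replicate 2 (0.0669). EPCAM fell by 0.30 on the log2 scale and lost its call without control replicate 2 or 3 and without ApoD overexpression replicate 1 or 3, with adjusted p from 0.0601 to 0.128. The part of these cell type markers in the fall of PPL and in the other results was not tested.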

How the data were processed

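RNA was sequenced from 6 libraries of the 83 cell line; RNeasy extraction and SMARTER mRNA-Seq library preparation are per the labels' protocols. The authors deposited whole-number read counts per gene symbol and FPKM values for the same genes, per the file headers. All 108650 FPKM values above 0 equalled the count divided by the library total and 1 gene length (tolerance 1e-06). Not given in the sources used here: the aligner, counter, strand setting and genome build.

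Counts were tested with edgeR 4.0.16 (R 4.3.3): TMM scaling, filterByExpr with a minimum count of 10, a two-sided quasi-likelihood F test and Benjamini-Hochberg adjustment over 14629 genes, with a threshold of 0.05. The SE is the log2 fold change divided by the square root of F. CPM is per 1000000 TMM-scaled counts. A gene could pass the filter on the libraries of a single group, and its direction of change is then not independent of the filter. The test was checked on simulated counts. Members and lists were chosen with earlier results of these data known. The text names all members, APOD, up to 4 called genes of each list by size of change, all enzymes of the cross-linking list, and the 3 most similar genes of each member with at least 1 CPM; other genes were chosen after their values were seen. Alternatives used DESeq2 1.42.0, limma 3.58.1, other scalings and filters, a replicate block and leaving out each library. A total of 0 columns had no sample.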

Additional observations from a re-analysis of the deposited data

How the results depend on the processing

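Over 15 alternatives, from which FPKM filtering dropped FLG in 2, the number of precursors called lower stayed at 1, and PPL was the gene called in each, with log2 fold changes from −1.09 to −0.87 and adjusted p from 9.71e-19 to 0.00116. EVPL ran from −0.18 to −0.009 and CNFN from −1.35 to −0.13, and neither was called (lowest adjusted p 0.139 and 0.0782). FLG turned to 0.52 with the abundance trend removed, an alternative chosen after seeing the data, and to 0.15 without ApoD overexpression replicate 1; BPTF turned to 0.016 without control replicate 1, in a range of −0.22 to 0.016 over the libraries left out. The difference in the log2 ratio of PPL to EVPL stayed between −0.86 and −0.84 when 1 library was left out. All genes called ranged from 5454 to 7519. Scaling by library totals called 4435 genes lower and 2580 higher, against 3601 and 3539 with TMM, and limma on unfiltered log2(FPKM + 1) called 2317 higher. Limma on filtered FPKM tested and called 3 of the cross-linking and citrullination enzymes in place of 6, because the filter at 1 FPKM removes the rest. Over all alternatives the number called lower ran from 3 to 6 of the lipid genes, 2 to 4 of the S100 genes and 0 to 4 of the endothelial, 2 to 4 of the luminal and 1 to 2 of the fibroblast markers. The number called higher ran from 0 to 2 for keratins, 2 to 3 for S100 genes, 0 to 3 for luminal and 0 to 1 for immune markers. With the replicate number as a block, 6348 genes and again 1 precursor were called (PPL −0.91, adjusted p = 4.12e-05). Deviations from the group means gave r = −0.198, −0.0321 and −0.131 between same-numbered libraries. Differently numbered ones had r from −0.0813 to 0.168. With 3 libraries a group, these values cannot show whether the numbers pair the libraries. Depth limits the SPRR genes and IVL, whose counts allow no call.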

Other observations

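Some precursor rows too low to test held most or all of their reads in a single library. SPRR2F had 7 counts, all in ApoD overexpression replicate 3. LCE3E had 8 of its 9 counts in ApoD overexpression replicate 2, the library that also held the 4 counts of SPRR2A and the 1 count of SPRR2D. SBSN, suprabasin, had 10, 1 and 1 counts with ApoD overexpression and 0 in the controls. LCE5A had 15 of its 28 counts in control replicate 1 and the others spread over all remaining libraries. These genes were chosen after their values were seen.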
